A study of Mus musculus with 24 samples.

Results

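Expression of the NFAT transcription factors and of the phosphatase that activates them was followed through the first day of CD4+ T cell activation. The group held 8 genes, chosen by name from the 22009 named genes of the deposited table: Nfatc1, Nfatc2, Nfatc3 and Nfat5, the calcineurin catalytic subunits Ppp3ca, Ppp3cb and Ppp3cc, and the calcineurin regulator Rcan1. All 8 had values above 0 in every one of the 24 libraries. The cells came from the spleen of adult WT C57BL/6 mice, were enriched for CD4+ cells by magnetic negative selection and pooled over mice, so the libraries are not biological replicates, and p-values measure the spread between these libraries. Resting cells gave 2 libraries. Th0 cells were stimulated with anti-CD3e and anti-CD28 alone, Th1 cells received in addition anti-IL-4 and IL-12, and Th2 cells received in addition anti-IL-12, anti-IFNG and IL-4. Each of these 3 conditions was sequenced once at 4, 8, 12, 16, 20 and 24 h, and 4 further libraries followed the decay of RNA with actinomycin, an inhibitor of transcription, added after 16 h of stimulation and left on the cells for 0, 1, 2 or 4 h. The condition of the actinomycin cells is not given by the labels. Resting libraries and cultures bear different numerical tags in their titles, whose meaning is not stated; were these separate preparations, their effect and that of activation cannot be told apart.

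In resting T cells the NFAT factors NFATc1, NFATc2 and NFATc3 are held in the cytoplasm by phosphorylation. Engagement of the T cell receptor opens calcium channels in the plasma membrane, calcium-loaded calmodulin activates calcineurin, and calcineurin removes the phosphates so that NFAT enters the nucleus and acts, often together with AP-1, on cytokine genes. Calcineurin is a dimer of a catalytic A subunit, of which the mouse has an alpha, a beta and a gamma form, and a regulatory B subunit. NFAT5 responds to osmotic stress, and its entry into the nucleus does not depend on this step of calcineurin. These steps take place on proteins, and the libraries measured only the RNA.

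The values were RPKM, which scale read counts by the length of the transcript and by the mapped reads of the library. For Nfatc3 and Ppp3cc they were whole reads over 1 length, whereas for the other 6 members no single length gave whole reads. How the length entered the values of those 6 is not given in the sources used here, so the order of levels between genes and the shares of summed RPKM hold only on the deposited scale. The number of mapped reads behind a library, recovered from the values, was between 17512385 and 33017133 over the time course and between 18052931 and 25735543 for actinomycin. In bulk RNA, fewer cells of a type and less RNA per cell cannot be told apart. The 10 markers of CD4+ T cells were all present and summed to 2168 to 2200 RPKM in resting cells, 1641 to 1726 RPKM at 4 h and 1568 to 1689 RPKM at 24 h. Each of the 8 marker lists of other spleen cells had lower sums at 24 h than at rest. No CD8 T cell marker passed the threshold at 4 or 24 h. At 4 h some sums were above rest, with NK cell markers at 65.9 to 171 RPKM against 105 to 107 RPKM. The 9 macrophage markers in the table summed to 572 to 593 RPKM at rest, 46.4 to 78.0 RPKM at 4 h and 8.07 to 12.8 RPKM at 24 h. Of these, 8 passed the threshold downwards at 4 h. The 8 B cell markers summed to 70.6 to 80.7, 38.8 to 64.3 and 12.4 to 29.5 RPKM at the same times. The 7 red cell genes in the table summed to 38837 to 42382 RPKM at rest, 29387 to 47109 RPKM at 4 h and 142 to 212 RPKM at 24 h. No B cell, macrophage or red cell marker was at 0 in every culture at 24 h. Their part in the changes with time that follow was not tested.

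Within resting cells the members formed 6 groups of level whose libraries did not overlap. Ppp3cb with 60.2 ± 0.855 RPKM (SD, n = 2) and Nfatc3 with 59.8 ± 1.89 RPKM (SD, n = 2) had the highest RPKM, and the values of these 2 genes overlapped. Nfatc1 followed with 37.6 ± 1.91 RPKM (SD, n = 2). Ppp3cc had 22.2 ± 0.263 RPKM (SD, n = 2) and Nfat5 21.6 ± 0.260 RPKM (SD, n = 2), which lay so close that only 0.17 RPKM separated the nearest libraries. Ppp3ca with 19.5 ± 1.88 RPKM (SD, n = 2) overlapped with Nfatc2 at 18.6 ± 0.0201 RPKM (SD, n = 2). Rcan1 was lowest, at 4.22 ± 0.413 RPKM (SD, n = 2). Nfatc4, the remaining gene of the calcium-regulated NFAT family, was at most 0.0306 RPKM in any library. By 24 h, 5 members (Nfatc1, Ppp3cb, Nfat5, Nfatc3 and Ppp3cc) had means between 30.3 and 41.7 RPKM with overlapping neighbours, while Nfatc2 with a mean of 8.99 RPKM, Ppp3ca with 5.38 RPKM and Rcan1 with 5.08 RPKM formed a lower group. Within this lower group Nfatc2 stood clear of the other 2, whose values overlapped.

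**Figure D1:**
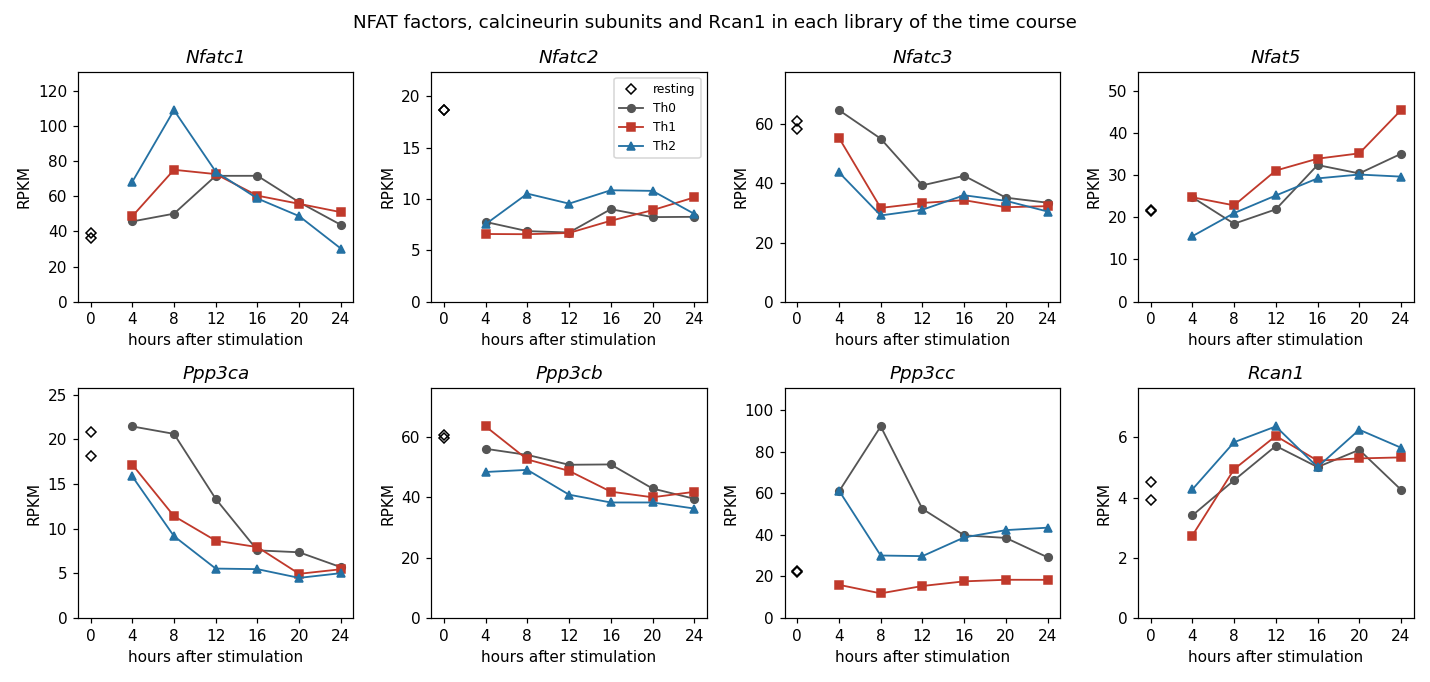
RPKM of each member (vertical axes, each starting at 0) against hours after stimulation, with open diamonds for the 2 resting libraries drawn at 0 h and 1 point per library for Th0, Th1 and Th2. Nfatc2 fell from 18.6 and 18.7 RPKM to between 6.57 and 10.9 RPKM in all 18 cultures, and Ppp3cc separated the Th1 cultures from the rest.

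Changes were tested with limma on log2(RPKM + 0.5), a scale that understates the change of low genes. A gene was called when its adjusted p was under 0.05 and the change at least 2-fold. Of all 10897 genes tested against resting cells, 10.6% were called at 4 h, 18.9% at 8 h, 27.1% at 12 h, 25.7% at 16 h, 29% at 20 h and 30.1% at 24 h. Of the 8 members, 1 was called at 4 h (Nfatc2), 1 at 8 h (Nfatc2), 2 at 12 h (Nfatc2 and Ppp3ca), 1 at 16 h (Ppp3ca), 1 at 20 h (Ppp3ca) and 2 at 24 h (Nfatc2 and Ppp3ca), and every one of these calls was a fall. By the adjusted p alone, 31.7%, 50.4%, 61.4%, 59.7%, 63.7% and 65.2% of all genes passed at the 6 time points in order, and 1, 3, 6, 6, 6 and 5 of the members. These counts were of the size of the share of all genes or below it, and are not a result about the group. The median log2 change of the members was -0.11 at 4 h and -0.25 at 24 h, beside -0.04 and -0.04 over all genes tested.

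**Figure D2:**
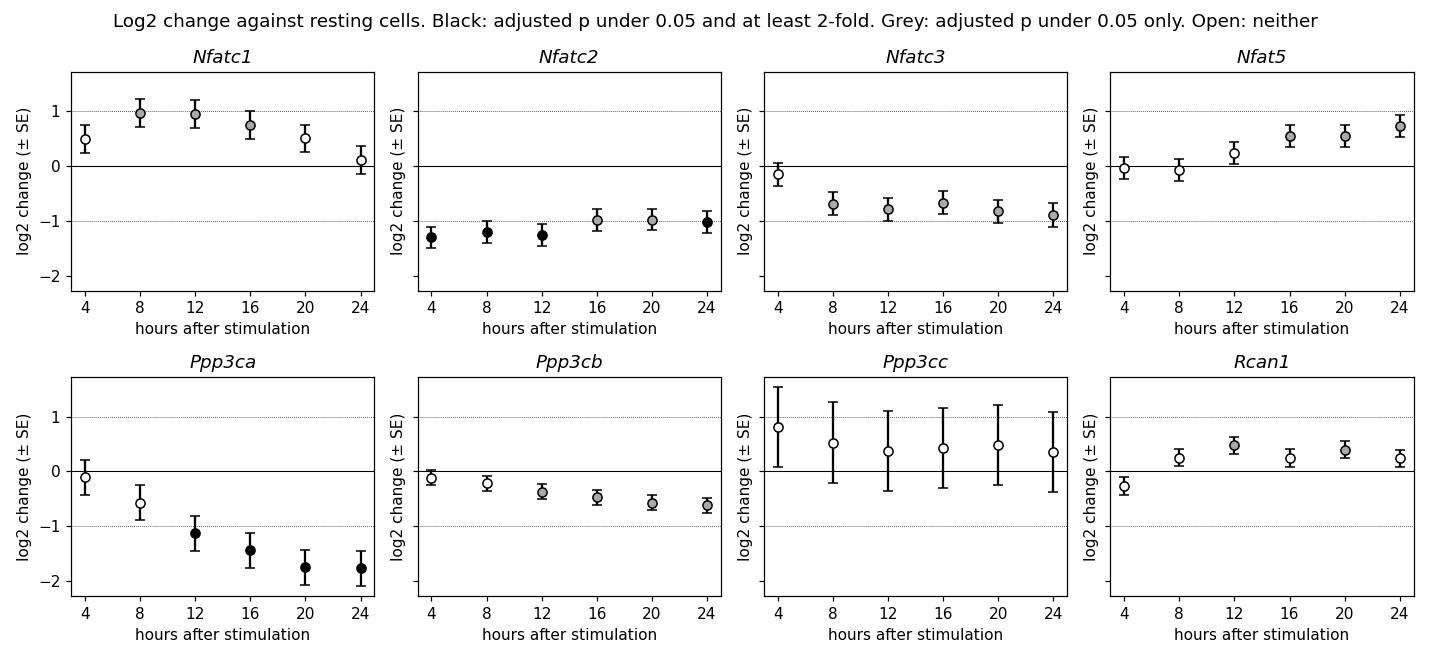
Log2 change of each member against resting cells (vertical axis, with the standard error of the limma fit as bars) at each time point. Black points passed an adjusted p of 0.05 and 2-fold (dotted lines at 1 and -1), grey points the adjusted p only, and open points neither; black points occur for Nfatc2 and Ppp3ca only.

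Among the factors, Nfatc1 was raised between 8 and 16 h and was back near its resting level at 24 h. Nfatc1, which lies on chromosome 18 from 80606205 to 80713071 (minus strand, GRCm38), encodes the NFAT member known for amplifying its own expression in activated lymphocytes. It has 5 annotated starts and 1 value per library, so the products of its starts cannot be told apart. At rest, Nfatc1 had 36.2 and 39.0 RPKM. In time order from 4 to 24 h, Nfatc1 in the Th0 cultures had 45.7, 50.1, 71.7, 71.7, 56.7 and 43.8 RPKM. The Th1 series of Nfatc1 was 48.6, 75.1, 72.7, 60.4, 55.7 and 51.0 RPKM. The Th2 series of Nfatc1 was 68.2, 109, 74.1, 58.8, 48.7 and 30.2 RPKM. All cultures but 1 were above both resting libraries, the exception being Th2 at 24 h. The highest value came at 8 h in Th1 and Th2 and at 12 to 16 h in Th0, and Th2 reached the highest level of all at 8 h. At 4 h the log2 change of Nfatc1 was 0.50 (standard error 0.25, adjusted p = 0.147, limma) and missed the threshold. It was 0.98 (standard error 0.25, adjusted p = 0.00441, limma) at 8 h, 0.95 (standard error 0.25, adjusted p = 0.00408, limma) at 12 h and 0.75 (standard error 0.25, adjusted p = 0.018, limma) at 16 h, which passed the adjusted p but were under 2-fold. The adjusted p of Nfatc1 at 8 h was up to 0.0618 over the alternatives and that at 16 h up to 0.0964 (limma). Without the Th0 cultures the change of Nfatc1 at 8 h was 1.26 (adjusted p = 0.0015, limma), past the threshold, and without resting replicate 2 it was 1.03 (adjusted p = 0.0255, limma), also past it. At 24 h the change of Nfatc1 was 0.11 (standard error 0.25, adjusted p = 0.706, limma).

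Nfatc2 was lower than at rest in every culture. Nfatc2, on chromosome 2 from 168476410 to 168601657 (minus strand), encodes one of the NFAT proteins present in resting T cells before stimulation. At rest, Nfatc2 had 18.7 and 18.6 RPKM. From 4 to 24 h Nfatc2 had 7.76, 6.87, 6.73, 9.01, 8.23 and 8.26 RPKM in Th0. In Th1, Nfatc2 had 6.59, 6.57, 6.69, 7.88, 8.91 and 10.2 RPKM. In Th2, Nfatc2 had 7.55, 10.5, 9.55, 10.9, 10.8 and 8.55 RPKM. All 18 cultures were below both resting libraries with a wide gap, and the mean of the 3 conditions was lowest at 4 h. The mean at 4 h was 7.30 ± 0.625 RPKM (SD, n = 3), which is 0.392 of the resting mean. The log2 change of Nfatc2 was -1.30 (standard error 0.20, adjusted p = 0.000104, limma) at 4 h, and it was called under all 15 alternatives run at 4 h. Later the change lay close to the 2-fold limit: -0.98 (standard error 0.20, adjusted p = 0.00045, limma) at 16 h and -0.97 (standard error 0.20, adjusted p = 0.000438, limma) at 20 h were just under it, and -1.02 (standard error 0.20, adjusted p = 0.000279, limma) at 24 h was just over it. With median-of-ratios scaling the change of Nfatc2 at 24 h was -0.88 (adjusted p = 0.000885, limma) and with quantile normalization -0.91 (adjusted p = 0.000708, limma), both under 2-fold. It was also under 2-fold without the Th0 cultures, at -0.96 (adjusted p = 0.00498, limma), and without the Th2 cultures, at -0.99 (adjusted p = 5.13e-05, limma).

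Nfatc3 fell to about the level of its 24 h value by 8 h in Th1 and Th2 and later in Th0. Nfatc3, on chromosome 8 from 106058840 to 106130537 (plus strand), encodes an NFAT protein prominent in thymocytes. Its last bases overlap Esrp2 on the other strand, which was at most 1.09 RPKM in any library. The values of Nfatc3 were whole numbers of reads in all 24 libraries, within 1e-06 of a read, and thus allowed exact Poisson 95% intervals, which cover counting error only. They are too narrow if the mates of a pair were counted as separate reads, and the same holds for the intervals of Ppp3cc. At rest, Nfatc3 had 58.4 RPKM from 6944 reads, with an interval of 57.1 to 59.8 RPKM, and 61.1 RPKM from 8651 reads, with 59.8 to 62.4 RPKM. In Th0, Nfatc3 had 64.8, 55.1, 39.3, 42.6, 35.2 and 33.5 RPKM from 4 to 24 h. In Th1, Nfatc3 had 55.4, 31.7, 33.4, 34.3, 31.9 and 32.3 RPKM. In Th2, Nfatc3 had 43.7, 29.1, 31.1, 36.0, 34.1 and 30.5 RPKM. Th0 at 4 h was above both resting libraries and the other 17 cultures were below both. Nfatc3 had a log2 change of -0.15 (standard error 0.21, adjusted p = 0.633, limma) at 4 h and -0.89 (standard error 0.21, adjusted p = 0.00148, limma) at 24 h; the latter passed the adjusted p but not 2-fold. With quantile normalization the change of Nfatc3 at 24 h was -1.02 (adjusted p = 0.000976, limma), past the threshold.

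Nfat5 was the factor that rose late in the day. Nfat5 lies on chromosome 8 from 107293470 to 107379517 (plus strand). At rest, Nfat5 had 21.4 and 21.8 RPKM. In Th0, Nfat5 had 24.7, 18.5, 21.9, 32.4, 30.4 and 35.1 RPKM from 4 to 24 h. In Th1, Nfat5 had 24.8, 22.8, 31.1, 33.9, 35.2 and 45.4 RPKM. In Th2, Nfat5 had 15.5, 21.0, 25.2, 29.2, 30.1 and 29.7 RPKM. At 4 h the Th2 culture was below and the Th0 and Th1 cultures above both resting libraries, and from 12 h on all cultures were above both. Nfat5 had a log2 change of -0.03 (standard error 0.20, adjusted p = 0.936, limma) at 4 h, 0.25 (standard error 0.20, adjusted p = 0.295, limma) at 12 h, 0.55 (standard error 0.20, adjusted p = 0.0272, limma) at 16 h and 0.73 (standard error 0.20, adjusted p = 0.00454, limma) at 24 h. Those at 16 and 24 h passed the adjusted p but not 2-fold, and without resting replicate 1 the adjusted p at 16 h was 0.107 (limma). The sign of the small change at 4 h turned with the scaling.

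The balance of the calcium-regulated factors shifted accordingly. Of the summed RPKM of Nfatc1, Nfatc2 and Nfatc3, Nfatc1 made up 32.0 to 32.8% in resting cells, 38.6 to 57.1% at 4 h, 60.9 to 64.6% at 12 h and 43.6 to 54.6% at 24 h. The share of Nfatc2 was 15.7 to 16.5% at rest and 5.96 to 6.57% at 4 h, and had come back to 9.67 to 12.3% at 24 h. Nfatc3 went from 51.5 to 51.6% at rest to 27.1 to 33.4% at 12 h. The sum itself was 113 to 119 RPKM at rest, 111 to 119 RPKM at 4 h and 69.3 to 93.4 RPKM at 24 h. Nfatc1 was thus the largest of the 3 shares from 12 h on in every culture except Th2 at 24 h, where it had 43.6% and Nfatc3 44.0%.

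**Figure D3:**
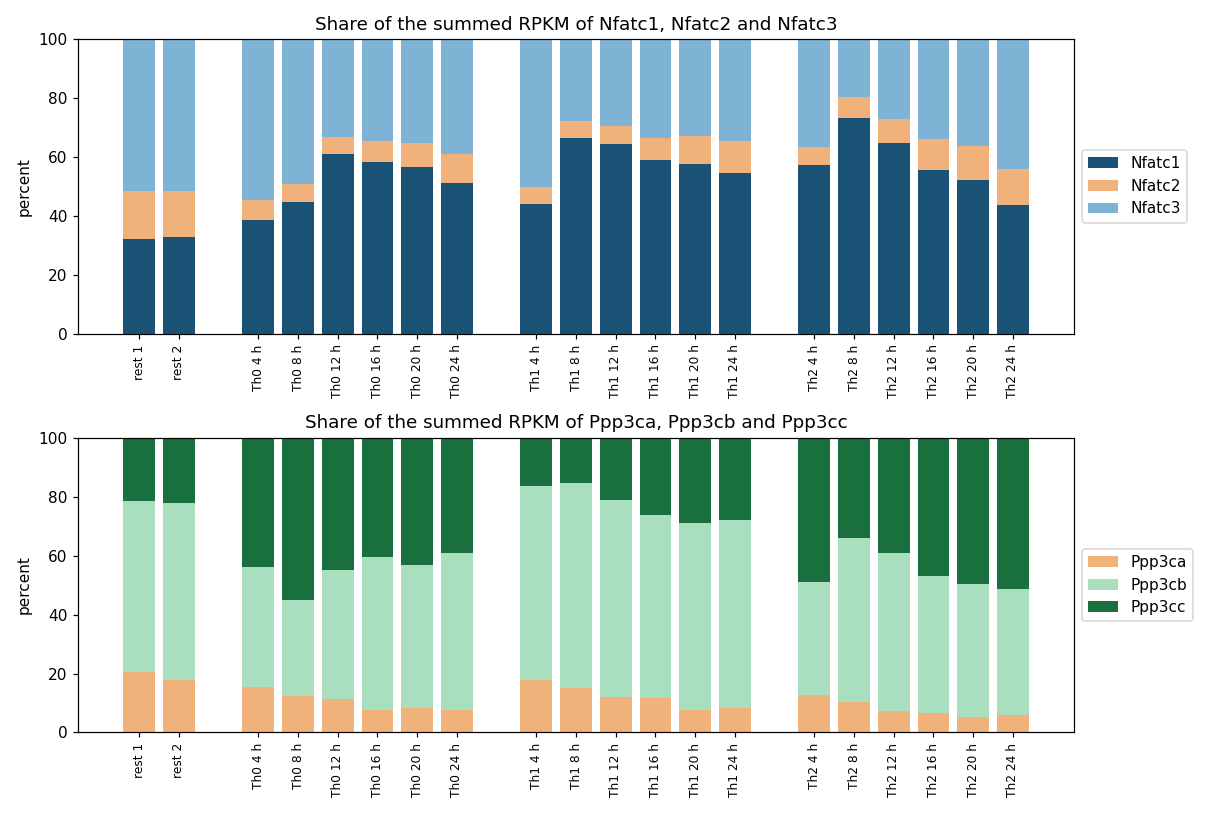
Share (percent, vertical axis) of each gene in the summed RPKM of the 3 calcium-regulated NFAT genes (top) and of the 3 catalytic subunits (bottom), 1 bar per library of the time course. Nfatc1 grows from 32.0 to 32.8% at rest to 60.9 to 64.6% at 12 h, and Ppp3cc takes 15.6 to 29.0% in Th1 against 39.2 to 55.2% in Th0.

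The 3 catalytic subunits moved in different ways. Ppp3ca fell the most of all members, Ppp3cb fell by less than 2-fold, and Ppp3cc lay above or below rest according to the condition. Ppp3ca, on chromosome 3 from 136670124 to 136937727 (plus strand), encodes the alpha form. At rest, Ppp3ca had 20.8 and 18.2 RPKM. In Th0, Ppp3ca had 21.4, 20.6, 13.3, 7.56, 7.35 and 5.68 RPKM from 4 to 24 h. In Th1, Ppp3ca had 17.2, 11.4, 8.65, 7.93, 4.94 and 5.45 RPKM. In Th2, Ppp3ca had 15.9, 9.16, 5.52, 5.46, 4.48 and 5.01 RPKM. The Th0 cultures at 4 and 8 h were within or above the resting values, all other cultures were below both resting libraries, and the 3 conditions lay within 5.01 to 5.68 RPKM at 24 h. At 24 h the mean was 5.38 ± 0.340 RPKM (SD, n = 3), which is 0.276 of the resting mean. Ppp3ca had a log2 change of -0.11 (standard error 0.32, adjusted p = 0.831, limma) at 4 h, -1.13 (standard error 0.32, adjusted p = 0.0059, limma) at 12 h and -1.77 (standard error 0.32, adjusted p = 0.000154, limma) at 24 h, and it was called at 24 h under all 15 alternatives run there. At 12 h the call was lost without the Th2 cultures, with a change of -0.83 (adjusted p = 0.0197, limma), and without resting replicate 1, with -1.03 (adjusted p = 0.0511, limma). The log2 change between 4 and 24 h does not use the resting libraries, but the spread of its fit does. In this comparison 26.2% of all genes were called and 66.5% passed the adjusted p alone. Of the members, Ppp3ca was called, with -1.66 (standard error 0.29, adjusted p = 9.90e-05, limma), and 5 passed the adjusted p alone: Ppp3ca, Ppp3cb (-0.50) and Nfatc3 (-0.74) downwards, and Nfat5 (0.76) and Rcan1 (0.50) upwards.

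Ppp3cb encodes the beta form and lies on chromosome 14 from 20499364 to 20546573 (minus strand). At rest, Ppp3cb had 59.6 and 60.8 RPKM. In Th0, Ppp3cb had 56.2, 54.1, 50.8, 51.0, 43.0 and 39.6 RPKM from 4 to 24 h. In Th1, Ppp3cb had 63.6, 52.6, 48.8, 41.9, 40.1 and 41.9 RPKM. In Th2, Ppp3cb had 48.4, 49.2, 40.9, 38.3, 38.3 and 36.3 RPKM. Th1 at 4 h was above both resting libraries and the other 17 cultures were below both. Ppp3cb had a log2 change of -0.11 (standard error 0.14, adjusted p = 0.57, limma) at 4 h and -0.61 (standard error 0.14, adjusted p = 0.000843, limma) at 24 h, past the adjusted p but under 2-fold at the later time. Ppp3cb remained the subunit with the highest RPKM of the 3 in every Th1 culture.

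Ppp3cc was the one member with a difference of 2-fold or more between skewing conditions over all time points. Ppp3cc encodes the gamma form, best known from testis, and lies on chromosome 14 from 70217865 to 70289471 (minus strand). The annotation places a processed pseudogene within it and an antisense gene that overlaps it and extends past its end, neither of which the table lists. At rest, Ppp3cc had 22.0 RPKM from 846 reads, with an exact Poisson 95% interval of 20.5 to 23.5 RPKM, and 22.4 RPKM from 1025 reads, with 21.0 to 23.8 RPKM. From 4 to 24 h Ppp3cc had 60.9, 92.2, 52.5, 39.7, 38.5 and 29.2 RPKM in Th0. In Th1, Ppp3cc had 15.9, 11.8, 15.4, 17.6, 18.3 and 18.3 RPKM. In Th2, Ppp3cc had 61.3, 30.0, 29.7, 38.7, 42.2 and 43.4 RPKM. All 6 Th0 and all 6 Th2 cultures were above both resting libraries, and all 6 Th1 cultures were below both. At 4 h the ratio of Th2 to Th0 was 1.01 (conditional binomial 95% interval 0.953 to 1.06). Later Th2 was 0.326 of Th0 at 8 h (0.305 to 0.348) and 1.49 times Th0 at 24 h (1.39 to 1.59).

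The conditions were compared over all 18 cultures with time in the model. The 6 time points of a condition stood in as its repeated libraries. The paper describes taking cells from the cultures at successive times, so these time points are not independent replicates. The effect of a condition and that of its culture series cannot be told apart. Of the 10737 genes tested, 0.494% were called between Th1 and Th0, 1.96% between Th2 and Th1, and 2.01% between Th2 and Th0. By the adjusted p alone the shares were 2.27%, 12.2% and 29.6%. Ppp3cc was called in 2 of these comparisons and was the only member called in any. It was lower in Th1 than in Th0, with a log2 difference of -1.57 (standard error 0.23, adjusted p = 0.00105, limma), and higher in Th2 than in Th1, with 1.28 (standard error 0.23, adjusted p = 0.00105, limma). Both calls were made under all 15 alternatives, with the Th1 against Th0 difference between -1.75 and -1.15 and its adjusted p between 0.00072 and 0.00977 (limma). Th1 was below Th0 at 6 of 6 time points, with ratios from 0.128 at 8 h (0.118 to 0.139) to 0.628 at 24 h (0.579 to 0.681). Th2 was above Th1 at 6 of 6 time points, with ratios from 1.93 at 12 h (1.77 to 2.11) to 3.85 at 4 h (3.54 to 4.20). The Th2 against Th0 difference of Ppp3cc was -0.29 (standard error 0.23, adjusted p = 0.352, limma), with Th2 above at 3 and below at 3 of 6 time points. Because the conditions lay on both sides of rest, the comparison of Ppp3cc with resting cells had a large spread, with 0.81 (standard error 0.73, adjusted p = 0.435, limma) at 4 h and 0.36 (standard error 0.73, adjusted p = 0.682, limma) at 24 h. Without the Th1 cultures the change of Ppp3cc at 4 h was 1.44 (adjusted p = 0.0384, limma), past the threshold.

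**Figure D4:**
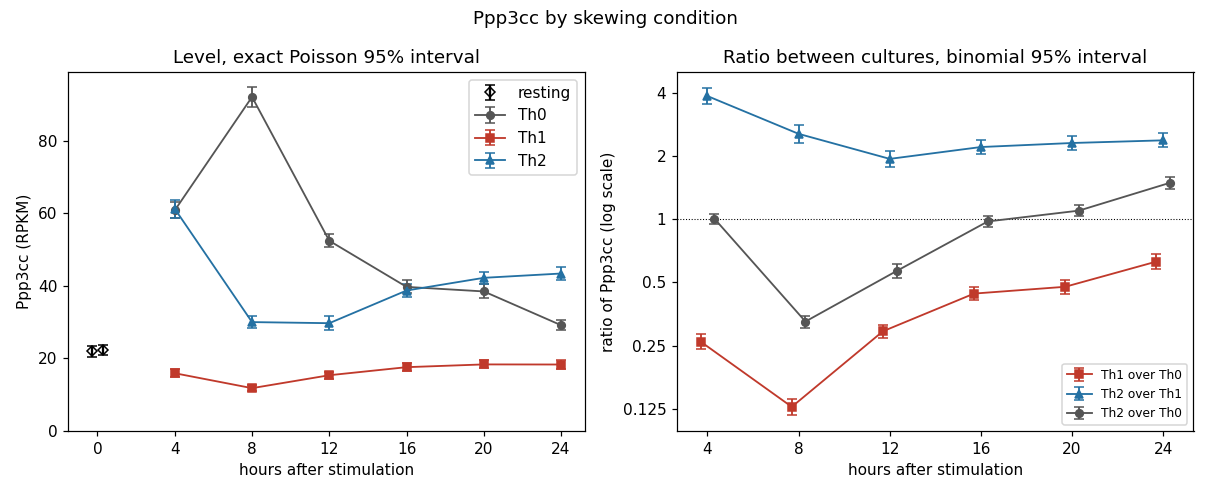
Left, RPKM of Ppp3cc against hours after stimulation by condition with exact Poisson 95% intervals; right, ratios of Ppp3cc between cultures of the same time (log scale) with conditional binomial 95% intervals, both covering counting error only. The Th1 values stay below the resting libraries (22.0 and 22.4 RPKM), and Th1 over Th0 is lowest at 8 h, at 0.128.

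The difference in Ppp3cc changed the makeup of the catalytic subunits. Ppp3cc made up 21.5 to 22.1% of the summed RPKM of the 3 subunits at rest, 15.6 to 29.0% in Th1, 39.2 to 55.2% in Th0 and 34.0 to 51.2% in Th2. The sum was 101 to 102 RPKM at rest, 63.3 to 96.7 RPKM in Th1, 74.4 to 167 RPKM in Th0 and 76.2 to 126 RPKM in Th2. Of the 8 marker lists of other cells, 5 also had their lowest mean in Th1, namely CD8 T cells, B cells, red cells, platelets and dendritic cells. The CD8 T cell and B cell lists were below both other conditions at 6 of 6 time points. The dendritic cell list was so at 4, the red cell list at 3 and the platelet list at 2 of 6. The B cell markers had summed RPKM of 12.4 to 38.8 in Th1, 18.9 to 53.6 in Th0 and 29.5 to 64.3 in Th2. The NK cell markers summed to 27.7 to 171 RPKM in Th1, 15.8 to 79.5 RPKM in Th0 and 38.2 to 144 RPKM in Th2. Their part in the difference was not tested. Of the neighbouring genes on the same strand, Sorbs3, looked at after the values of Ppp3cc were seen, was at 2.37 RPKM in the 4 h culture of Th0, 0.846 RPKM in that of Th1 and 1.26 RPKM in that of Th2, against 0.643 and 0.583 RPKM at rest. The ratio of Th1 to Th0 of Sorbs3 was under 1 at 6 of 6 time points, from 0.13 at 8 h to 0.408 at 24 h, with its lowest value at the same time as that of Ppp3cc. Th2 was above Th1 at 6 of 6 time points, by ratios of 1.28 to 2.57. Sorbs3 averaged under the minimum of 1 RPKM and was tested only without a filter, with a log2 difference for Th1 against Th0 of -1.16 (standard error 0.12, adjusted p = 0.0008, limma) and for Th2 against Th1 of 0.37 (standard error 0.12, adjusted p = 0.0921, limma). Whether reads of one gene reached the other was not tested. Slc39a14, on the other side, was between 7.65 and 30.3 RPKM, with a log2 difference of 0.18 (standard error 0.14, adjusted p = 0.535, limma) for Th1 against Th0.

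For the other members, differences between conditions over all time points were under 2-fold. At single time points Ppp3ca and Nfatc1 went past 2-fold between Th2 and Th0. For Th2 against Th0, 4 passed the adjusted p alone, none was called with limma, and 5 had an unadjusted p under 0.05. These were Ppp3ca with -0.67 (standard error 0.12, adjusted p = 0.00116, limma), Nfatc3 with -0.37 (standard error 0.10, adjusted p = 0.0112, limma) and Ppp3cb with -0.22 (standard error 0.07, adjusted p = 0.0206, limma), all lower in Th2 at 6 of 6 time points, and Nfatc2 with 0.28 (standard error 0.10, adjusted p = 0.0466, limma), higher in Th2 at 5 of 6. Of these only the pass of Ppp3ca held under all 15 alternatives, while without the 12 h cultures the adjusted p was 0.16 for Nfatc2 and 0.0888 for Ppp3cb (limma). With 12 to 24 h only, Nfatc3 was at -0.19 and did not pass the adjusted p (limma). The Ppp3ca ratio of Th2 to Th0 was lowest at 12 h, at 0.414, and was 0.882 at 24 h. For Th2 against Th1, Nfat5 passed the adjusted p with -0.35 (standard error 0.10, adjusted p = 0.0242, limma) and was lower in Th2 at 6 of 6 time points, and Ppp3cc also passed. Without the 24 h cultures the adjusted p of Nfat5 was 0.0853 (limma). For Th1 against Th0, Ppp3cc alone passed. For Nfatc1 the order of the conditions turned over: Th2 was 2.18 times Th0 at 8 h and 0.691 of it at 24 h, and its difference over all time points was 0.12 (standard error 0.16, adjusted p = 0.615, limma). Rcan1 was higher in Th2 than in Th0 at 6 of 6 time points by ratios of 1.00 to 1.33, with 0.21 (standard error 0.09, adjusted p = 0.0818, limma), a difference that missed the threshold.

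Rcan1 stood apart by its low level. Rcan1 encodes a protein that binds calcineurin and restrains it, and one of its promoters is a textbook target of NFAT, which closes a feedback loop. The gene lies on chromosome 16 from 92391953 to 92470867 (minus strand, GRCm38), and RefSeq lists 2 starts in the promoter table used here, 66091 bases apart. The windows of 250 bases before each start are shown because one belongs to the NFAT-driven short transcript and the other to the long one. They are written 5′ to 3′ on the gene's strand, and capitals mark the NFAT core GGAAA and its reverse complement TTTCC.
Rcan1 inner start, chr16:92400079-92400328: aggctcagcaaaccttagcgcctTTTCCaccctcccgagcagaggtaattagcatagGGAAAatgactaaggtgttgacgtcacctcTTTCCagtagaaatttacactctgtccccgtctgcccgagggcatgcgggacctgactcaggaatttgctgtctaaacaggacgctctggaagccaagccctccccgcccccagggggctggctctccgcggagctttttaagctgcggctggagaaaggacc
Rcan1 outer start, chr16:92466170-92466419: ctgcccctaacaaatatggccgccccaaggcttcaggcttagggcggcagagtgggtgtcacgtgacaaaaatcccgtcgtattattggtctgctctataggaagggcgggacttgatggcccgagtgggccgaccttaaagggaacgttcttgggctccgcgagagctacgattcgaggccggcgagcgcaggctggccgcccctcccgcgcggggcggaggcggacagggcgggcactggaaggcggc
The inner window held 3 cores, at 227, 193 and 163 bases before the start, and the outer window held none. Of all 32851 windows of this length in the table, 55.6% held at least 1 core on either strand, 6.4% held at least 3 and 44.4% held none. Among the windows of the other members that the table holds, Nfatc2 had 3 and 1 cores before its starts, Ppp3cb 3, Nfat5 2 and Nfatc3 1 and 0. A match of these letters is a description of the window and not a bound site.

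The table gives 1 value for Rcan1, so the products of the inner and outer start cannot be told apart. Rcan1 had 3.93 and 4.51 RPKM in the resting libraries. In Th0, Rcan1 had 3.41, 4.58, 5.72, 5.01, 5.59 and 4.26 RPKM from 4 to 24 h. In Th1, Rcan1 had 2.74, 4.94, 6.05, 5.23, 5.30 and 5.33 RPKM. In Th2, Rcan1 had 4.27, 5.84, 6.36, 5.01, 6.25 and 5.66 RPKM. At 4 h the Th0 and Th1 cultures were below both resting libraries, and 14 of all 18 cultures were above both. Rcan1 had a log2 change of -0.26 (standard error 0.16, adjusted p = 0.221, limma) at 4 h, 0.47 (standard error 0.16, adjusted p = 0.0155, limma) at 12 h, 0.40 (standard error 0.16, adjusted p = 0.036, limma) at 20 h and 0.24 (standard error 0.16, adjusted p = 0.194, limma) at 24 h; those at 12 and 20 h passed the adjusted p but not 2-fold. Without resting replicate 1 they did not pass, with adjusted p of 0.129 and 0.215 (limma). Under quantile normalization the change of Rcan1 at 12 h was 1.04 (adjusted p = 0.000113, limma), past the threshold, and the one at 4 h turned to 0.11.

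After actinomycin, the RNA of Nfatc1 fell within hours, while 6 of the 8 members showed no slope that passed the adjusted p. The slope of log2(RPKM + 0.5) over the hours with actinomycin was fitted to the 4 libraries, and a gene was called at an adjusted p under 0.05 and a slope worth at least 1 log2 unit over 4 h. With 1 library a time point and 2 residual degrees of freedom, the spread in this fit was taken almost wholly from all genes. Of 10571 genes, 9.55% were called and 20.9% passed the adjusted p alone. Nfatc1 was the only member called, and Nfatc2 passed the adjusted p. Nfatc1 had 54.2, 47.5, 24.2 and 19.5 RPKM at 0, 1, 2 and 4 h, so that 36.0% of the value at 0 h was left at 4 h. Its slope was -0.39 (standard error 0.06, adjusted p = 4.22e-08, limma) per hour. On this relative scale the slope corresponds to a halving in 2.57 h (2.23 to 3.02 h for 1 standard error of the slope). It is not a half-life of the RNA itself, and the largest drop came between 1 and 2 h and not at a constant rate. Nfatc1 was called under all 12 alternatives, with a slope between -0.57 and -0.36 and an adjusted p of up to 0.0276, reached with no filter (limma). Nfatc2 had 7.23, 7.69, 4.01 and 3.88 RPKM, with 53.6% left at 4 h and a slope of -0.24 (standard error 0.08, adjusted p = 0.0183, limma) per hour. The pass of Nfatc2 was lost without the library at 0 h (adjusted p = 0.162), 1 h (0.147) or 4 h (0.134) and with no filter (0.159, all limma). Both genes were lower at 2 and 4 h than at 0 and 1 h.

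The other 6 members had slopes whose adjusted p did not pass. Nfatc3 had 32.7, 30.3, 31.4 and 31.4 RPKM and a slope of -0.01 (standard error 0.06, adjusted p = 0.953, limma) per hour. Ppp3cb had 40.4, 34.2, 37.4 and 39.7 RPKM and a slope of 0.01 (standard error 0.06, adjusted p = 0.924, limma) per hour. Ppp3ca had 4.48, 4.42, 5.39 and 4.40 RPKM and a slope of 0.00 (standard error 0.08, adjusted p = 0.99, limma) per hour. At 4 h these 3 genes had 96.2%, 98.1% and 98.1% of their value at 0 h. Nfat5 had 22.3, 21.1, 23.0 and 32.9 RPKM, 148% of the start at 4 h, with a slope of 0.15 (standard error 0.06, adjusted p = 0.0604, limma) per hour. Ppp3cc had 25.7, 24.7, 37.4 and 28.4 RPKM, highest at 2 h. Rcan1 had 5.62, 6.93, 4.96 and 4.99 RPKM, highest at 1 h. RPKM are relative to all mapped reads of a library, so a constant value means that the RNA kept its share while transcription was stopped. The library at 0 h was outside the range of the 3 cultures at 16 h for 6 members, with 4.48 RPKM for Ppp3ca against 5.46 to 7.93 RPKM, and within it for Ppp3cb and Ppp3cc. Ppp3cc at 0 h, 25.7 RPKM, lay between the Th1 culture at 16 h (17.6 RPKM) and the Th2 culture (38.7 RPKM). In the actinomycin libraries the B cell markers summed to 3.71 to 5.33 RPKM, below every culture of the time course. The CD8 T cell markers (3.81 to 5.90 RPKM) and the NK cell markers (3.71 to 7.91 RPKM) were also below every culture. The macrophage markers summed to 54.7 to 77.4 RPKM there. In the cultures they summed to 46.4 to 78.0 RPKM at 4 h and to 8.07 to 12.8 RPKM at 24 h. The sums of red cell, platelet, neutrophil and dendritic cell markers overlapped with those of the cultures. The slopes belong to these cells and may not hold for the time course.

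**Figure D5:**
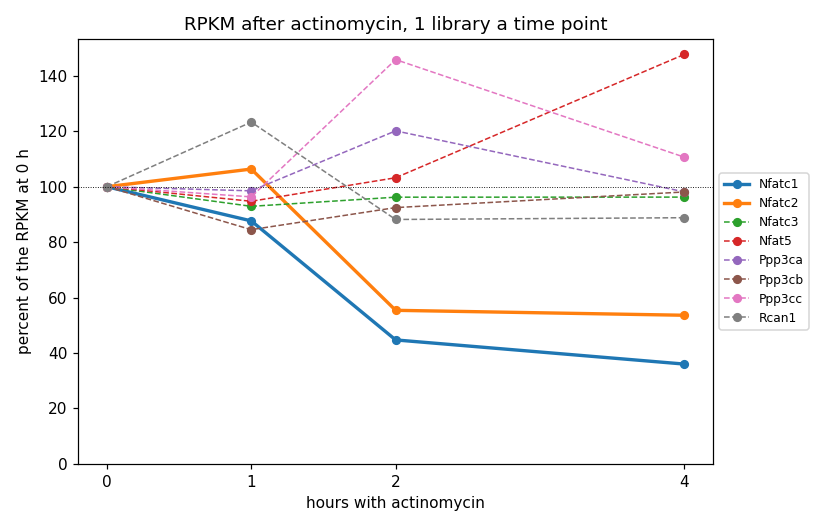
RPKM of each member as a percentage of its value at 0 h (vertical axis) against hours with actinomycin, 1 library a time point; solid thick lines are Nfatc1 and Nfatc2, dashed lines the other members. Nfatc1 falls to 36.0% and Nfatc2 to 53.6% at 4 h, and the other 6 end between 88.8 and 148%.

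Around the members, the other genes of the pathway were described by lists. Of all genes tested, 2.61% were called upwards and 7.97% downwards at 4 h, and 12.7% upwards and 17.4% downwards at 24 h. Of the 20 genes of calcium entry and clearance, 19 were tested. At 4 h, 1 rose and 3 fell, and at 24 h, 2 rose and 8 fell, with a median log2 change of -0.90 beside -0.04 over all genes. Orai1, the pore of the store-operated calcium channel, rose at 4 h by 1.84 (standard error 0.27, adjusted p = 8.52e-05, limma). Atp2a3, a calcium pump of the endoplasmic reticulum, changed by -1.91 (standard error 0.12, adjusted p = 6.52e-09, limma) at the same time. Among the others called at 4 h were the inositol trisphosphate receptor Itpr3 with -1.06 and Cracr2a, a regulator of the channel, with -1.04. At 24 h the largest falls were those of the plasma membrane pump Atp2b4 with -2.79, Cracr2a with -2.14, the channel subunit Orai2 with -2.12 and Itpr2 with -1.99. Atp2b4 was the one gene of this list called between Th1 and Th0, with 1.02 (standard error 0.12, adjusted p = 0.000189, limma). Orai1 had a slope of -0.41 (standard error 0.06, adjusted p = 1.00e-08, limma) per hour after actinomycin, near that of Nfatc1.

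None of the 4 tested genes of calmodulin and the regulatory calcineurin subunits was called with limma at 4 h or 24 h. At 4 h, 2 of them passed the adjusted p downwards and 3 had an unadjusted p under 0.05, and at 24 h the numbers were 0 and 0. Of the 6 tested calcineurin inhibitors, anchors and immunophilins, none was called at 4 h and 3 rose at 24 h. They were the mitochondrial anchor Akap1 with 2.49 (standard error 0.35, adjusted p = 1.40e-05, limma), Fkbp1a, which encodes the protein bound by FK506, with 1.99 (standard error 0.20, adjusted p = 4.68e-07, limma), and Ppia, which encodes the protein bound by cyclosporin A, with 1.27 (standard error 0.19, adjusted p = 2.37e-05, limma). At 4 h, 2 of these 6 genes passed the adjusted p and 3 had an unadjusted p under 0.05. For the 11 NFAT kinases the counts called were near or below the 10.6% and 30.1% of all genes at 4 and 24 h and are not a result about the kinases: 1 fell at 4 h, Mapk14, which encodes the kinase p38 alpha, with -1.18 (standard error 0.11, adjusted p = 9.77e-07, limma). At 24 h, 2 fell, Dyrk2 with -1.37 (standard error 0.22, adjusted p = 5.80e-05, limma) and Dyrk1b with -1.36 (standard error 0.25, adjusted p = 0.000159, limma), both kinases that keep NFAT phosphorylated or prime it for GSK3. The median log2 change of the kinases at 24 h was -0.52. Of 4 tested genes of NFAT shuttling and cofactors, none was called at 4 h, where 2 passed the adjusted p and 2 had an unadjusted p under 0.05, and Kpnb1, an importin, rose at 24 h with 1.04 (standard error 0.16, adjusted p = 2.62e-05, limma).

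Most textbook NFAT target genes in T cells rose in these libraries. Of 19 tested, 15 rose and none fell at 4 h, and 14 rose and none fell at 24 h, with median log2 changes of 2.49 and 2.42, beside 2.61% and 12.7% of all genes called upwards at these times. The largest at 4 h were the transcription factors Irf4 with 3.70 and Egr3 with 3.38 and the cytokines Il2 with 3.27 and Il13 with 3.25. At 24 h Il2 led with 6.19 (standard error 0.52, adjusted p = 4.47e-08, limma), followed by Irf4 with 4.65, Il3 with 4.02 and Il2ra, the high-affinity chain of the IL-2 receptor, with 3.63. Il2 at 4 h was lowest in Th0 with 7.07 RPKM, intermediate in Th1 with 19.8 RPKM and highest in Th2 with 38.2 RPKM, against 1.37 RPKM in each resting library. Between conditions, 2 of the 19 were called upwards for Th1 against Th0, beside 0.177% of all genes, Ifng with 3.15 (standard error 0.26, adjusted p = 8.68e-06, limma) and the chemokine Ccl3 with 1.16. For Th2 against Th1, 2 were called, both downwards, beside 1.96% of all genes called in either direction. For Th2 against Th0 none was called, and 6 passed the adjusted p upwards, beside 29.6% of all genes passing in either direction. After actinomycin, 11 of 19 were called downwards, beside 5.58% of all genes, with Ccl4, Ccl3 and Irf4 at slopes of -0.44, -0.40 and -0.40 per hour.

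The 7 tested osmotic-stress targets of NFAT5 went both ways. At 4 h, 1 rose and 2 fell, and at 24 h, 2 rose and 2 fell. The transporter of myo-inositol Slc5a3 rose, with 1.57 (standard error 0.37, adjusted p = 0.00357, limma) at 4 h and 1.92 (standard error 0.37, adjusted p = 0.000247, limma) at 24 h, and the taurine transporter Slc6a6 rose at 24 h with 1.09 (standard error 0.16, adjusted p = 1.73e-05, limma). The heat shock gene Hspa1b, whose reads could be shared with its near-identical copy Hspa1a and whose value is therefore uncertain, changed by -3.83 at 4 h and -7.42 at 24 h. The kinase gene Sgk1 changed by -2.18 and -3.79. Hspa1b had 322 and 329 RPKM in the resting libraries against 1.10 to 1.94 RPKM at 24 h, and both genes respond to stresses other than osmotic ones.

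The genes whose pattern was most like that of each member were found by Pearson's r of log2(RPKM + 0.5) over the 20 libraries of the time course, among genes averaging 5 RPKM or more. These r are descriptions, since the libraries share a time course and were made from pooled cells. For Nfatc1 they were Slc3a2 (r = 0.97), Sh2b3 (0.96) and Fyn (0.95). The closest to Nfatc2 were BC017158 (0.92), Mapk14 (0.91) and Prkcb (0.90). Nfatc3 was closest to Dazap2 (0.98), Rbl2 (0.97) and Ppp2r5c (0.97), and Nfat5 to Plod3 (0.92), Etv6 (0.91) and Cpd (0.90). For Ppp3ca the genes were Ddx5 (0.98), Pnrc2 (0.98) and Ypel5 (0.97), and for Ppp3cb Vezf1 (0.96), Sp4 (0.95) and Mgea5 (0.95). Ppp3cc had Glipr2 (0.95), Ncoa3 (0.88) and Trat1 (0.85), the last of which was also on the list of T cell markers. Rcan1, itself under 5 RPKM on average, had Pepd (0.94), Cox16 (0.89) and Tprn (0.89). Between members, r was highest for Ppp3ca with Ppp3cb (0.91) and with Nfatc3 (0.85) and lowest for Nfatc3 with Rcan1 (-0.76), while Ppp3cc had r between -0.41 and 0.28 with the other 7.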

How the data were processed

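RNA sequencing libraries (n = 24) were read on an Illumina NextSeq 500. The authors deposited 1 table of RPKM values per gene symbol with 22010 entries, 1 of them unnamed with a sum of 0. The submitters' processing notes name BWA and GRCm38, without versions, and the use of strand in counting is not given in the sources used here, so reads of overlapping antisense genes cannot be told apart. Mapped reads per library were recovered from the steps between low values, and intervals cover counting error only; in all 24 libraries low genes piled up more at 2 reads than at 1, so mates may have been counted separately, in which case the intervals are too narrow. Only Nfatc3 and Ppp3cc had whole reads over 1 length, so no counting interval could be calculated for the other 6 members.

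Values were transformed to log2(RPKM + 0.5), genes averaging under 1 RPKM over the libraries of a fit were left out, and limma 3.58.1 (R 4.3.3) was run with its trend option, with p-values adjusted after Benjamini-Hochberg over all genes tested. Time points were fitted over the 20 time course libraries, with the 3 cultures of a time point as its libraries, so that differences between conditions are part of the spread. Conditions were compared over the 18 cultures in a model that also held the time point, and slopes over the 4 actinomycin libraries. The fits were run on simulated data with flat genes, equal and independent spread in every library, and a known change in some genes. That setting had no dependence between libraries, so it does not test the p-values printed here. Python 3.11.15, numpy 2.4.6, pandas 2.3.3 and scipy 1.17.1 were used. Gene coordinates are those of GENCODE vM21 (GRCm38), and promoter windows are from RefSeq (GRCm38.p6), which held 5 of the 8 members.

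Alternatives were quantile, upper-quartile and median-of-ratios scaling, a pseudocount of 0.1 or of 1, a minimum average of 5 RPKM or none, limma without the trend, no minimum fold, only the libraries compared, only 12 to 24 h, and leaving out each resting library, culture series or time point. Skewing condition as a factor was added after seeing the data. The members and gene lists were chosen with earlier results of these data known. The genes named are the members, for each list at most the 4 with the largest changes among those called, and for each member the 3 genes with the highest r. Sorbs3, Slc39a14 and Esrp2 were named as neighbours of members.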

Additional observations from a re-analysis of the deposited data

Results flagged for a closer look

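The direction of Ppp3cc against resting cells differed between conditions. Its mean over the 6 time points was 52.1 RPKM in Th0 and 40.9 RPKM in Th2, with every culture above both resting libraries, and 16.2 RPKM in Th1, with every culture below both. The difference itself was tested between cultures, with a log2 difference of -1.57 for Th1 against Th0 (adjusted p = 0.00105, limma) and 1.28 for Th2 against Th1 (adjusted p = 0.00105, limma), each seen at 6 of 6 time points. The cultures were sequenced once each and came from pooled cells, and the time points of a condition are not independent replicates. No other member had all cultures of one condition above and all of another below rest. No group of libraries was large enough for a test of single outlying libraries.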

How the results depend on the processing

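Calls were made by few members and several lay near 2-fold, so counts of 1 or 2 moved with small changes. Without a minimum fold, the members passing were 3 at 8 h, 6 at 12 h, 6 at 16 h, 6 at 20 h and 5 at 24 h against rest, 5 at 24 h against 4 h, 4 in Th2 against Th0, 2 in Th2 against Th1 and 2 by slope after actinomycin. At 8 h against rest, 2 members were called with median-of-ratios scaling and 2 with upper-quartile scaling, where Nfatc1 joined Nfatc2. At 16 h and at 20 h against rest, 2 were called with a pseudocount of 0.1, where Nfatc2 joined Ppp3ca. At 24 h against rest, 1 was called with a pseudocount of 1, 1 with median-of-ratios scaling and 1 with upper-quartile scaling, where Nfatc2 was lost. With quantile normalization Nfatc2 was also lost and Nfatc3 gained (-1.02), so that the count stayed at 2. By slope, 2 were called with a pseudocount of 0.1 and 2 with median-of-ratios scaling, where Nfatc2 joined Nfatc1. Leaving out a resting library or a culture series gave 1 to 2 members at 4, 8, 12, 16, 20 and 24 h against rest.

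Small differences turned in sign, none of them called. The change of Nfat5 at 4 h was 0.047 with median-of-ratios, 0.029 with upper-quartile and 0.025 with quantile scaling, and that of Rcan1 at 4 h was 0.11 with quantile scaling. With 12 to 24 h only, Nfatc1 was at -0.24 in Th2 against Th0, at -0.24 when Th2 was set against Th1 and at -0.0078 in Th1 against Th0, and Nfatc2 at 0.050 in Th1 against Th0. Nfatc2 in Th1 against Th0 was 0.0053 with median-of-ratios and 0.024 with quantile scaling. Slopes turned for Nfatc3 with upper-quartile (0.0066) and quantile scaling (0.0087), and for Ppp3ca (-0.010) and Ppp3cb (-0.0035) with median-of-ratios scaling. Leaving out 1 culture series or resting library gave -0.28 to 0.0034 for Nfatc3 and -0.14 to 0.19 for Nfat5 at 4 h, and -0.046 to 0.33 for Nfatc1 at 24 h. Leaving out 1 time point gave -0.081 to 0.25 for Nfatc1 in Th2 against Th0 and -0.093 to 0.16 against Th1. In Th1 against Th0 it gave -0.073 to 0.028 for Nfatc2, -0.079 to 0.012 for Ppp3cb and -0.022 to 0.091 for Rcan1. For slopes it gave -0.027 to 0.014 for Nfatc3, -0.020 to 0.12 for Ppp3ca and -0.056 to 0.067 for Ppp3cb.

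With skewing condition as a factor, which was added after seeing the data, no count of members moved by more than 1.5 times. The calls of Nfatc2 at 4 h, of Ppp3ca at 24 h, of Ppp3cc between Th1 and each other condition and of the slope of Nfatc1 were made under all alternatives run. Rcan1 was not tested where an average of 5 RPKM was required in the time course. With quantile scaling the median of all genes moved to 0.13 at 24 h. Each culture was sequenced once, from pooled cells, and 4 actinomycin libraries without repeats limit the slopes. No paired analysis was possible because each stimulated group had 1 library, so that groups share fewer than 2 replicate numbers, and conditions were matched only through the time point in the fit.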
